A study of Mus musculus with 12 samples.

Results

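Cells that divide copy their DNA in S phase and then part the copies in mitosis, and each task needs a set of proteins whose genes are read mainly in cycling cells. The genes described here are 34 such genes, chosen by name: 13 of DNA replication (the S-phase genes) and 21 of chromosome segregation and cell division (the mitotic genes). The array annotation holds probe sets for 33 of the 34, out of 18193 genes represented on the arrays. Ccnb1, which encodes cyclin B1, has no probe set in the annotation used and was not analysed here, so the mitotic genes are 20. The 33 genes have 77 probe sets that map to 1 gene alone, and each gene is read from the brightest of its probe sets, by the mean of all 12 arrays.

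RNA from the gonads of male mouse embryos (labelled genital ridge and testis) was hybridised to 12 Affymetrix whole-genome arrays, 2 for each of 6 groups. The groups are 2 strains, each taken at E13.5, at E15.5 and at E17.5 (embryonic days): the inbred strain 129/Sv, called 129 below, and the chromosome substitution strain 129.MOLF-Chr 19, called M19, in which chromosome 19 comes from MOLF and the rest of the genome from 129. No group was treated, and the stages and strains are the whole design. The study asked which genes differ between the strains at each stage and between stages within each strain, in a project on testicular germ cell tumours. The labels give a pool of 40 testis pairs as the source of 2 arrays. If both arrays of a group share a pool, the p-values rest on technical spread between arrays and not on spread between animals.

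Among the S-phase genes, the MCM proteins form the helicase that opens the double helix, Cdc6 and Cdt1 load it, Pcna and Fen1 serve at the fork, and Rrm1, Rrm2 and Tyms make the DNA building blocks. The mitotic genes encode the kinases and cyclins that drive entry into mitosis (Cdk1, Ccna2, Ccnb2, Plk1, Aurka), the spindle checkpoint (Bub1, Bub1b, Mad2l1, with its target Cdc20), the chromosomal passenger proteins (Aurkb, Birc5, Cdca8), and proteins of the spindle and of cell cleavage (Tpx2, Nusap1, Prc1, Ect2). In the fetal testis, male germ cells stop dividing and stay arrested until after birth, while Sertoli cells and interstitial cells go on dividing. The arrays measured whole gonads, in which fewer cycling cells and less RNA of a gene per cell cannot be told apart.

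The values are log2 signals whose array medians lay between 8.10 and 8.27. Marker genes of the testis lay above that, with a median of 10.77 to 11.57 per array over 14 Sertoli cell markers and of 9.34 to 11.25 over 15 germ cell markers. No marker of any list was at 0, but only 8 to 18 probe sets of an array were, so this says nothing about expression. One array of 129 at E13.5, replicate 1, stood apart, with a control probe value for 18S ribosomal RNA of 9.69 against 6.88 to 8.38 on the other 11 arrays. Both arrays of 129 at E15.5 carried skin and muscle signal: the summed signal of 10 epidermis markers was 13.92 to 13.97 there on the log2 scale, against 11.84 to 12.24 in the other 5 groups.

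By their brightest probe sets, all of the 33 genes but Tyms lay above the middle of all probe sets at every stage. Most were highest at the first stage. All 13 S-phase genes had their highest stage mean at E13.5, and so had 15 of the 20 mitotic genes. The other 5 mitotic genes peaked later: Bub1, Mad2l1 and Cdca8 at E15.5, and Prc1 and Foxm1 at E17.5. These stage means take both strains together. For Fen1, Tyms and the mitotic gene Cdc20 the E13.5 mean leaned on the 129 array that stood apart, at 11.75, 8.45 and 12.09. The other E13.5 arrays had 11.35 to 11.49, 7.96 to 8.04 and 11.89 to 11.92. The E15.5 means were 11.44, 8.02 and 11.95. Within a single strain some of these genes were not highest at E13.5. In M19 Fen1 had a mean of 11.446 there and 11.451 at E15.5. In 129 Mcm5 had 12.327 and 12.331, and Cdc6 9.185 and 9.195, at these stages. Of the mitotic genes, Bub1b in M19 had 11.10 at E13.5 and 11.17 at E15.5. Ccna2 in M19 had 11.730 at E13.5 and 11.737 at E17.5. The lowest stage was E17.5 for 10 S-phase and 14 mitotic genes. Mean levels over the 12 arrays ran from 7.98 to 12.91 for S-phase genes and from 9.52 to 12.46 for mitotic genes, so no mitotic gene and only Tyms, the thymidylate synthase gene, lay near the middle of all probe sets at 8.17. These are levels of single probe sets and do not rank the genes by transcript number.

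**Figure D1:**
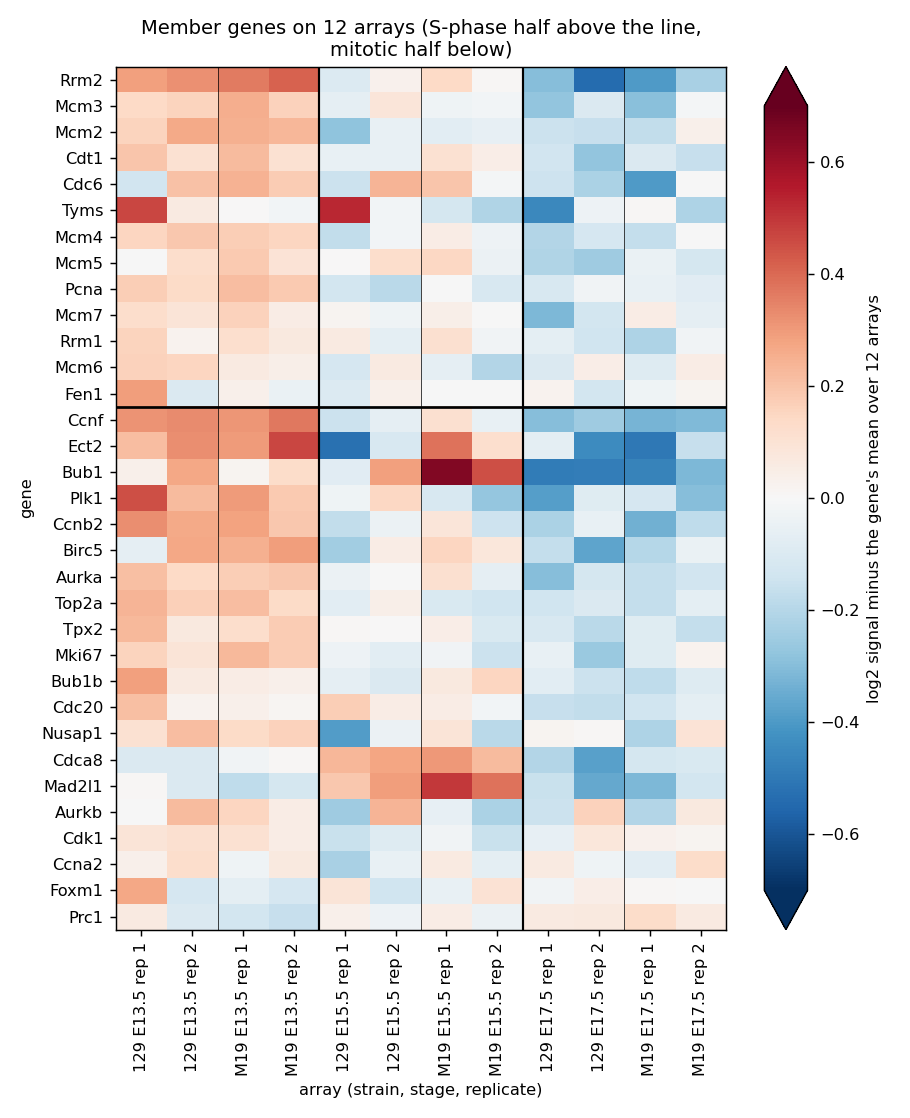
Each row is a gene and each column an array, with the colour giving the log2 signal minus that gene's mean over the 12 arrays. The E13.5 columns are mostly above the gene mean and the E17.5 columns mostly below it, while Mad2l1 and Cdca8 are highest in the E15.5 columns of both strains and Bub1 in those of M19.

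The decline was small and was seen in both strains. The median signal of the 13 S-phase genes was 11.75 and 11.72 on the 2 arrays of 129 at E13.5, and 11.77 and 11.81 in M19. At E17.5 it was 11.48 and 11.32 in 129 and 11.42 and 11.47 in M19. All 4 late arrays lay below all 4 early ones. The median of the 20 mitotic genes was 11.21 and 11.20 at E13.5 in 129 and 11.10 and 11.12 in M19. At E17.5 it was 10.93 and 10.87 in 129 and 10.81 and 10.94 in M19, again with no overlap. At E15.5 the S-phase median was already down, at 11.36 and 11.49 in 129 and 11.54 and 11.45 in M19, while the mitotic median was 10.94 and 11.08 in 129 and 11.32 and 11.16 in M19, the last pair lying above its E13.5 level. Gene by gene, 14 of the 20 mitotic genes were below 0 in the first step in M19, with a median difference of -0.16.

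From E13.5 to E17.5, 4 genes fell in each strain and none rose, by limma's moderated test adjusted with Benjamini-Hochberg over 45037 probe sets, which calls a difference at an adjusted p under 0.05. In 129 they were Rrm2, Ccnf, Plk1 and Bub1, which is 4 of 33 genes where 4% of all genes were called lower and 6.9% higher. Without the 129 E13.5 array that stood apart, 3 of these 4 were called (Rrm2, Ccnf and Bub1). In M19 the called genes were Rrm2, Ccnf, Ccnb2 and Ect2, against 5.26% of all genes called lower and 10.2% higher. The difference was below 0 for 32 of 33 genes in 129, with a median of -0.29 (all genes: 0.01), and for 29 of 33 in M19, with a median of -0.24 (all genes: 0.10). The S-phase and mitotic medians were -0.33 and -0.29 in 129, and -0.25 and -0.22 in M19. The 2 arrays at E17.5 lay below both at E13.5 for 28 genes in 129 and 24 in M19, where 21.7% and 24.8% of all genes did so.

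**Figure D2:**
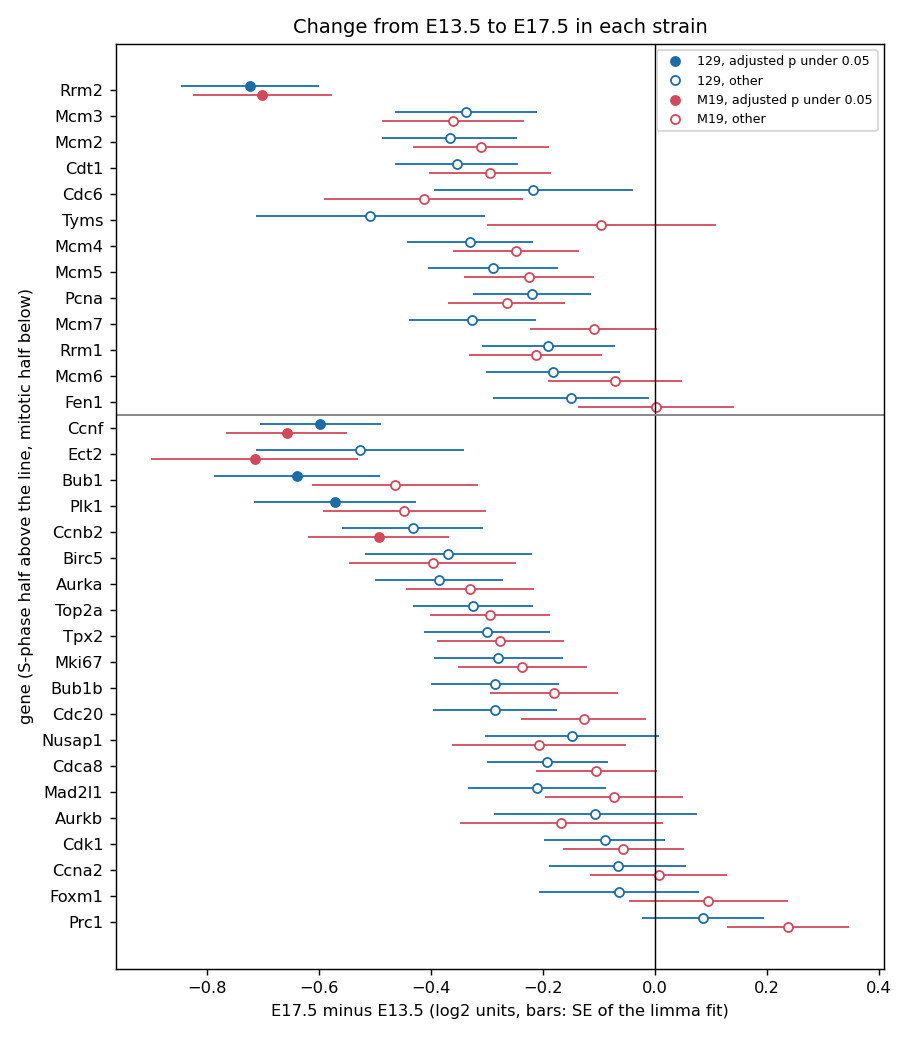
The log2 difference E17.5 minus E13.5 of each gene is drawn on the horizontal axis for 129 (blue) and M19 (red), with bars for the standard error and filled marks for called differences. Nearly all marks lie left of 0, and Rrm2 and Ccnf are filled in both strains.

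Rrm2 encodes the small subunit of ribonucleotide reductase, the enzyme that makes deoxynucleotides, and it showed the largest fall of the S-phase genes. Its signal was 11.69 and 11.72 in 129 at E13.5, 11.31 and 11.43 at E15.5, and 11.10 and 10.86 at E17.5. In M19 it was 11.77 and 11.81, then 11.54 and 11.41, then 11.00 and 11.17. The 3 stages did not overlap within either strain or across both. The difference was -0.72 ± 0.12 (SE, n = 2 and 2 arrays) in 129, with a limma adjusted p of 0.0042, and -0.70 ± 0.12 in M19, with 0.0043. It amounts to 1.65-fold and 1.63-fold less signal. The other 2 probe sets of Rrm2 changed as well, by -0.72 and -0.54 in 129 and by -0.90 and -0.65 in M19, and all 4 differences were called. The call in 129 was lost without 129 E17.5 replicate 2 (adjusted p 0.0505) and when the fit used the compared arrays alone (0.0809), and the call in M19 without M19 E13.5 replicate 2 (0.0564).

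Ccnf encodes cyclin F, the substrate-binding part of a ubiquitin ligase whose targets include the Rrm2 protein. Its signal in 129 was 10.07 and 10.08, then 9.60 and 9.69, then 9.45 and 9.50 over the 3 stages, and in M19 10.06 and 10.12, then 9.87 and 9.70, then 9.43 and 9.45. Each stage lay below the one before on every array. The difference was -0.60 ± 0.11 in 129 (limma adjusted p 0.0057) and -0.66 ± 0.11 in M19 (0.0028), and both calls were made whichever single array was left out. In 129 the call was lost in a fit on the compared arrays alone (adjusted p 0.127) and with the next brightest probe set (0.131), which is dim.

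Plk1 and Bub1 were called in 129 and Ccnb2 and Ect2 in M19. Bub1, whose values follow below with its E15.5 peak, changed by -0.64 ± 0.15 in 129 (limma adjusted p 0.0223), a call lost without 129 E13.5 replicate 2 (0.0772), 129 E17.5 replicate 1 (0.115) or 2 (0.112) and in the fit on the compared arrays alone (0.121). In M19 Bub1 stood at -0.46 over the span and was not called (0.0665). Plk1 encodes Polo-like kinase 1, which acts from mitotic entry to cleavage. Its signal in 129 was 10.73 and 10.50 at E13.5 and 9.89 and 10.19 at E17.5, a difference of -0.57 ± 0.15 (limma adjusted p 0.035). In M19 it went from 10.58 and 10.46 to 10.16 and 9.98, a difference of -0.45 that was not called (adjusted p 0.0706). The Plk1 call in 129 was lost without any 1 of 6 arrays, namely 129 E13.5 replicate 1 (0.116), 129 E17.5 replicate 1 (0.243), and each M19 array at E13.5 (0.063) and E15.5 (0.0534), and in the fit on the compared arrays alone (0.21). Ccnb2 encodes cyclin B2, a partner of Cdk1. It stood at 11.53 and 11.44 in M19 at E13.5 and at 10.91 and 11.07 at E17.5, which gave -0.49 ± 0.13 (adjusted p 0.0285). In 129 the values were 11.58 and 11.52, then 11.03 and 11.20, which gave -0.43 and was not called (0.0631). The arrays of the 2 stages did not overlap in either strain for either gene. The Ccnb2 call was lost without M19 E13.5 replicate 1 (0.185) or 2 (0.13) and without M19 E17.5 replicate 1 (0.189) or 2 (0.0568).

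Ect2 encodes the exchange factor that starts the contractile ring in cleavage. In M19 it went from 11.23 and 11.40 at E13.5 through 11.31 and 11.05 at E15.5 to 10.44 and 10.77 at E17.5, and the span was -0.71 ± 0.19 (limma adjusted p 0.030). In 129 it went from 11.15 and 11.26 to 10.41 and 10.82 and then 10.86 and 10.50, and the span of -0.53 was not called (0.122). By its means, Ect2 was low by E15.5 in 129 and only at E17.5 in M19, a strain difference in course that was not called. The M19 call was lost without M19 E13.5 replicate 1 (0.0963) or 2 (0.214) or M19 E17.5 replicate 1 (0.213).

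Averaging the 2 strains, a contrast added after the data were seen, sets 4 arrays against 4. From E13.5 to E17.5, 17 of 33 genes then fell and none rose, where 10.9% of all genes were called lower and 16.3% higher. They were 7 of 13 S-phase genes and 10 of 20 mitotic genes. All 4 late arrays lay below all 4 early arrays for 21 genes, as they did for 14.5% of all genes. The count was 16 with a replicate block, but 7 without M19 E13.5 replicate 1, 9 without M19 E13.5 replicate 2 and 8 without M19 E17.5 replicate 1. It was 17 without the 129 E13.5 array that stood apart, and 15 without both 129 E15.5 arrays.

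Among the S-phase genes, Rrm2 led the averaged fall at -0.71 ± 0.09 (limma adjusted p 0.000202). The helicase subunits followed, with Mcm3 at -0.35 ± 0.09 (0.0179) and Mcm2 at -0.34 ± 0.09 (0.0162), and Mcm4 and Mcm5 were called too. Pcna, the sliding clamp of the polymerases, changed the least of the called genes, by -0.24 ± 0.07 (0.0381), and Mcm5 by -0.26 ± 0.08 (0.0451). Cdt1, which loads the helicase, changed by -0.32. Mcm6 at -0.13 and Mcm7 at -0.22 were not called, nor were Rrm1 at -0.20, Cdc6 at -0.31, Tyms at -0.30 and Fen1 at -0.07. Without M19 E13.5 replicate 1, Rrm2 was the only S-phase gene still called.

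Single arrays show how narrow these shifts are. Mcm2 was 11.90 and 12.01 in 129 and 12.00 and 11.98 in M19 at E13.5, and 11.60 and 11.58 in 129 and 11.58 and 11.78 in M19 at E17.5. Mcm3 was 11.28, 11.30, 11.40 and 11.30 on the E13.5 arrays in the same order, and 10.87, 11.04, 10.85 and 11.13 at E17.5. Neither gene's stages overlapped. Pcna was 12.93, 12.89, 12.97 and 12.94 at E13.5, 12.63, 12.57, 12.76 and 12.64 at E15.5, and 12.65, 12.73, 12.71 and 12.68 at E17.5. Its lower level was thus reached by E15.5 and did not go down further. Cdt1 was 11.52, 11.43, 11.55 and 11.43 at E13.5 and 11.19, 11.05, 11.22 and 11.17 at E17.5, with all late arrays below all early ones.

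Among the mitotic genes, the averaged fall was led by Ccnf at -0.63 ± 0.08 (limma adjusted p 0.000187), Ect2 at -0.62 ± 0.13 (0.0064) and Bub1 at -0.55 ± 0.11 (0.0035). The smallest called falls were those of Mki67, which encodes the Ki-67 proliferation antigen, at -0.26 ± 0.08 (0.0436), and Tpx2, a spindle assembly factor that activates Aurora A, at -0.29 ± 0.08 (0.0249). Plk1, Ccnb2, Birc5 (survivin, of the chromosomal passenger complex), Aurka (the Aurora A kinase) and Top2a (the topoisomerase that untangles sister chromosomes) made up the other 5 calls, from -0.51 to -0.31. The mitotic genes still called without M19 E13.5 replicate 1 were Aurka, Bub1, Ccnb2, Ccnf, Ect2 and Plk1. With the next brightest probe set Aurka (0.378) and Bub1 (0.146) were not called, nor was Tpx2 with the mean of its probe sets (0.177).

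Several core mitotic genes had a span near 0. Cdk1, the kinase that drives mitosis, was 12.16, 12.18, 12.18 and 12.12 at E13.5 (129, then M19) and 12.02, 12.15, 12.10 and 12.09 at E17.5, so its stages overlapped and the averaged difference was -0.07, with a 95% interval of -0.24 to 0.10. In between, at E15.5, Cdk1 was 11.92 and 11.98 in 129 and 12.05 and 11.92 in M19, below all E13.5 arrays, and the averaged first step of -0.20 was not called (limma adjusted p 0.148). Ccna2, cyclin A2, differed by -0.03 (interval -0.22 to 0.16). Foxm1, the factor that activates many mitotic genes, differed by 0.02 (-0.21 to 0.24). Prc1, which bundles the microtubules of the spindle midzone, was the only gene of the 33 above 0 in both strains, at 0.09 in 129 and 0.24 in M19, and neither was called. Its other probe set stood at 0.27 and 0.43, and the averaged difference of that probe set, 0.35 ± 0.10, was called higher (limma adjusted p 0.0293).

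The first step, from E13.5 to E15.5, gave few calls within a strain. In 129 only Ccnf fell, by -0.43 ± 0.11 (limma adjusted p 0.0483), where 1.84% of all genes were called lower and 4.46% higher. That call was lost on leaving out any single array of the 12, with a replicate block (0.0663), with median centring (0.0723) and in the fit on the compared arrays alone (0.581). In M19 only Mad2l1 rose, by 0.59 ± 0.12 (0.017), where 5.74% were called higher and 1.66% lower. The Mad2l1 call was lost without M19 E13.5 replicate 1 (0.172) or 2 (0.116) or M19 E15.5 replicate 1 (0.16) or 2 (0.0683). Medians were -0.18 over the 33 genes in 129 (all genes: -0.03) and -0.16 in M19 (all genes: 0.05). Averaged over both strains, 5 genes fell (Mcm2, Pcna, Rrm2, Ccnb2 and Ccnf), where 4.52% of all genes were called lower, and 2 rose (Mad2l1 by 0.44 and Cdca8 by 0.31), where 9.8% were called higher. These 7 calls dropped to 2 without M19 E13.5 replicate 1 and to 1 without replicate 2, to 2 and 3 without 129 E15.5 replicates 1 and 2, and to 3 and 2 without M19 E15.5 replicates 1 and 2.

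The second step, from E15.5 to E17.5, gave calls only among 3 genes within a strain. In 129, Cdca8 changed by -0.55 ± 0.11 (limma adjusted p 0.0297), where 1.24% of all genes were called lower and 1.18% higher. In M19, Bub1 changed by -0.94 ± 0.15 (0.0093) and Mad2l1 by -0.66 ± 0.12 (0.0203), where 1.79% were called lower and 1.45% higher. Averaged over both strains, Bub1 (-0.76), Mad2l1 (-0.58), Cdca8 (-0.46) and Rrm2 (-0.39) fell and none rose, where 4.58% of all genes were called lower and 4.46% higher. In the averaged contrast the calls for Bub1, Mad2l1 and Cdca8 were made whichever single array was left out. The call for Rrm2 was lost in 7 of these 12 fits, with limma adjusted p in parentheses: without either M19 E13.5 array (0.0558), 129 E15.5 replicate 2 (0.0847), M19 E15.5 replicate 1 (0.124) or 2 (0.0512), 129 E17.5 replicate 2 (0.0987) or M19 E17.5 replicate 1 (0.101). Within a strain the calls were less firm: Cdca8 was called in 2 of the 12 fits that left out 1 array (either 129 array of E13.5), Mad2l1 in 6 and Bub1 in 10, where M19 E15.5 replicate 1 (0.136) and M19 E17.5 replicate 1 (0.0948) were the arrays Bub1 needed. Skin and muscle markers moved with both steps in 129: 8 of 10 epidermis and 7 of 10 skeletal muscle markers rose to E15.5, and 7 and 4 fell after it, while in M19 0 and 1 (lower) were called in the first step and 1 and 3 (higher) in the second. Their part in these steps was not tested.

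**Figure D3:**
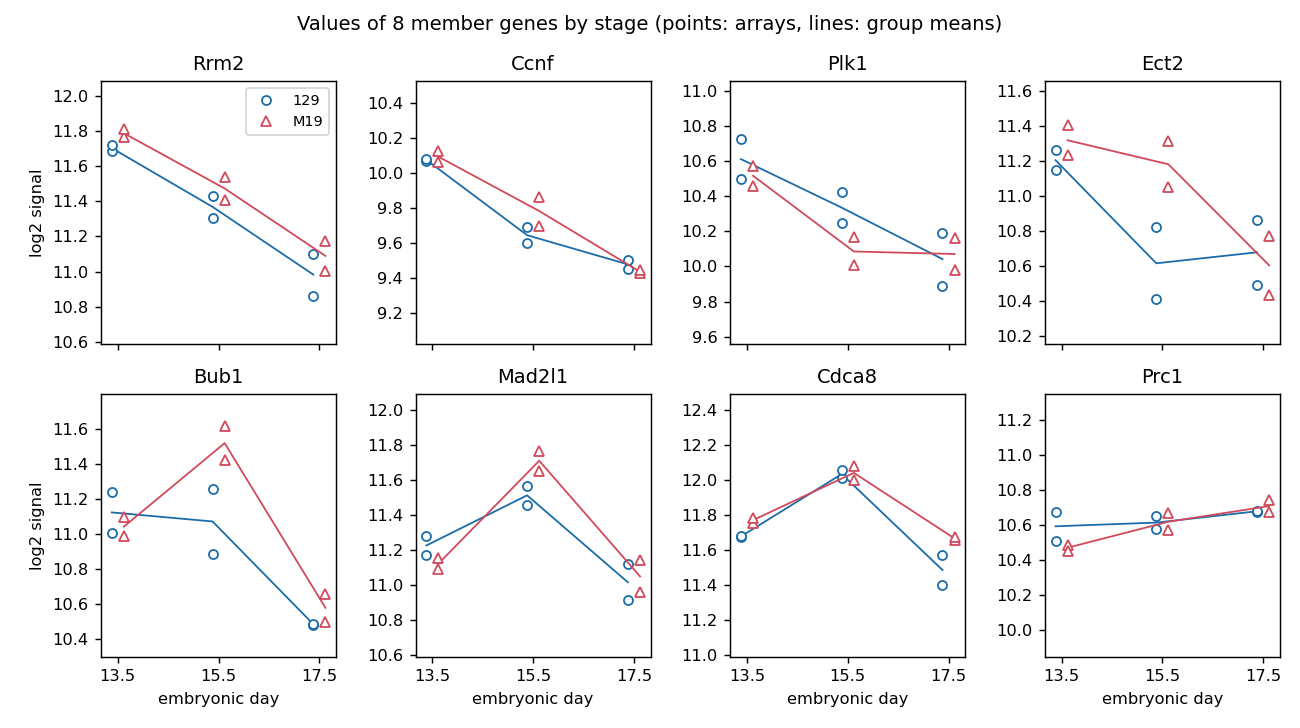
Single-array log2 signals are drawn against embryonic day for 8 genes, 129 as circles and M19 as triangles, with a line through the group means of each strain. Rrm2 and Ccnf go down at each step, whereas Mad2l1 and Cdca8 are highest at E15.5 in both strains.

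Of the spindle checkpoint genes, with both strains together, Bub1 and Mad2l1 had their highest stage mean at E15.5, and Bub1b and the target Cdc20 at E13.5. In M19, though, Bub1b was higher at E15.5 (11.13 and 11.21) than at E13.5 (11.11 and 11.09). The Cdc20 means at E13.5 and E15.5 were close, at 11.953 and 11.946, and the first leaned on the 129 array that stood apart (12.09). Of the chromosomal passenger genes, Cdca8 was highest at E15.5, and Aurkb and Birc5 at E13.5. Mad2l1 encodes MAD2, the checkpoint protein that holds back chromosome separation. Its signal was 11.28 and 11.17 in 129 and 11.09 and 11.15 in M19 at E13.5, then 11.46 and 11.56 and 11.77 and 11.65 at E15.5, then 11.12 and 10.91 and 10.96 and 11.14 at E17.5. Every E15.5 array lay above all 8 others. Cdca8 encodes borealin, of the chromosomal passenger complex, and its E15.5 arrays also lay above all others, at 12.01 and 12.05 in 129 and 12.08 and 12.00 in M19. It had been 11.68 and 11.68 in 129 and 11.76 and 11.79 in M19, and it ended at 11.57 and 11.40 in 129 and 11.66 and 11.67 in M19. All 3 probe sets of Cdca8 were higher at E15.5 than at the stages before and after in both strains, and all 3 were called lower from E15.5 to E17.5 in 129.

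Bub1, the checkpoint kinase at the kinetochore, had this peak in M19 alone by its means, at 11.62 and 11.42 at E15.5 against 10.99 and 11.10 before and 10.50 and 10.66 after. In 129 it was 11.00 and 11.24 at E13.5, 10.89 and 11.25 at E15.5, and 10.48 and 10.49 at E17.5, so the first 2 stages overlapped. The test of that strain difference in the first step gave 0.53 ± 0.21, with an unadjusted p of 0.0286 and a limma adjusted p of 0.9996, so it was not called. A second, dim probe set of Bub1, with a mean level of 7.37, was not higher at E15.5 than at E13.5: its first step was -0.25 in 129 and -0.02 in M19, its second -0.04 and -0.13 and its span -0.29 and -0.14, none of them called.

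The median level over the germ cell markers was also highest at E15.5, in both strains. Of 15 measured germ cell markers, 9 rose and 1 fell from E13.5 to E15.5 in 129, and 11 rose and 1 fell in M19. From E15.5 to E17.5, 4 fell in 129 and 6 in M19 and none rose. Their summed signal on the log2 scale was 14.12 to 14.38 at E13.5, 15.06 to 15.38 at E15.5 and 14.57 to 14.79 at E17.5. Over the whole span, embryonic globin transcripts of red blood cells went down far more than any of the 33 genes: 4 of 7 red blood cell markers fell and 1 rose in each strain, and the summed signal went from 15.15 to 15.35 at E13.5 down to 13.39 to 13.57 and then 11.65 to 11.78. Sertoli markers went up, from a summed 15.06 to 15.19 at E13.5 to 15.66 to 15.72 at E17.5, with 7 of 14 called higher and 2 lower in each strain. All 7 fetal Leydig cell markers rose in M19 and 6 in 129. The part of these shifts in the cell cycle results was not tested.

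The other probe sets of the same genes gave a check on the choice of the brightest. Of 44 other probe sets, 30 had a mean above 8.17. In the span, 29 of these 30 were below 0 in 129, with a median of -0.35, and 24 in M19, with a median of -0.37. The sign was that of the brightest probe set for 30 of them in 129 and 23 in M19. Of all 44, 8 were called lower and 0 higher in 129, and 10 lower and 1 higher in M19. All genes, by their brightest probe sets, gave 4% lower and 6.9% higher in 129, and 5.26% and 10.2% in M19. Averaged over the strains, 20 of the 44 were called lower and 1, of Prc1, higher. Of all 45037 probe sets, 4650 were called lower and 5472 higher in that contrast. The second probe set of Mcm2 changed by -0.74 ± 0.13 in 129 (limma adjusted p 0.0040) and -0.68 ± 0.13 in M19 (0.0055), about the size of Rrm2, whereas the brightest gave -0.37 and -0.31. Mcm7, which encodes another helicase subunit, differed likewise: 2 of its other probe sets changed in 129 by -0.58 and -0.60 and were called, while the brightest gave -0.33. Fen1 encodes the flap endonuclease that trims Okazaki fragments. Its brightest probe set gave -0.15 and 0.00, and its second -0.44 and -0.56, of which the M19 value was called (0.0311). For these 3 genes the difference between probe sets was larger than the standard error of either.

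The start sites of the genes that fell most were read for known cell cycle motifs. Promoters are RefSeq sequences of build GRCm38.p6, from 250 bases before to 50 after the start, and 28 of the 33 genes matched. Shown are 230 bases, 200 before and 30 from the start, of the 3 S-phase and 3 mitotic genes with the largest averaged fall, each on its gene's own strand. Capitals mark matches on either strand to the CHR element (TTTGAA or TTCGAA), the CCAAT box (CCAAT) and the E2F site (TTTCCCGC, TTTGGCGC, TTTCGCGC or TTTGCCGC). Rrm2 lies at chr12:24708054-24708283 (plus strand), Mcm3 at chr1:20820283-20820512 (minus), Mcm2 at chr6:88898751-88898980 (minus), Ccnf at chr17:24251380-24251609 (minus), Ect2 at chr3:27153849-27154078 (minus, 1 of its 2 start sites) and Bub1 at chr2:127831830-127832059 (minus).
Rrm2: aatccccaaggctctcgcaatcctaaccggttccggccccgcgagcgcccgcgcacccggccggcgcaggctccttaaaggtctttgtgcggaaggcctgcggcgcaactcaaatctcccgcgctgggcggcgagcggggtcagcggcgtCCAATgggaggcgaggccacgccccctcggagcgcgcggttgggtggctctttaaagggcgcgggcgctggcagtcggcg
Mcm3: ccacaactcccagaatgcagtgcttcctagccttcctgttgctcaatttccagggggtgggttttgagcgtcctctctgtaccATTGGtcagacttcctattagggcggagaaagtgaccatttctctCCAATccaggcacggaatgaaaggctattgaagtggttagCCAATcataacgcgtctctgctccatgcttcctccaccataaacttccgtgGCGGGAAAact
Mcm2: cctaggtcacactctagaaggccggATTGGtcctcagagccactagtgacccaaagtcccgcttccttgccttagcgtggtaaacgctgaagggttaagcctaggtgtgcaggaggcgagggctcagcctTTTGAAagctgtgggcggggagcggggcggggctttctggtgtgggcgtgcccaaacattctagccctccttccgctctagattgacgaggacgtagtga
Ccnf: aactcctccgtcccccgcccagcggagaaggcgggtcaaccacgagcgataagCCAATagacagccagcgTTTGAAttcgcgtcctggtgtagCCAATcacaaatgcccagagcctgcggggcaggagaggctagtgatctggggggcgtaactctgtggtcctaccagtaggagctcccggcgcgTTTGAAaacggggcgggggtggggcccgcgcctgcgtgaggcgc
Ect2: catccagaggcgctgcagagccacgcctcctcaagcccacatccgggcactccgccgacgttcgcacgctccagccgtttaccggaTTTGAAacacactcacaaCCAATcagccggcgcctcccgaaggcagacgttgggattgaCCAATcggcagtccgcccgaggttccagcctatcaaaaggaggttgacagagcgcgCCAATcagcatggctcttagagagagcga
Bub1: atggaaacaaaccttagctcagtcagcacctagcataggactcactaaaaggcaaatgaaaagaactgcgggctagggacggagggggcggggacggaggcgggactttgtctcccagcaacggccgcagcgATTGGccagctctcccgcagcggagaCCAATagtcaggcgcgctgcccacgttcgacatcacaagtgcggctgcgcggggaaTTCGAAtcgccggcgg

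The 3 mitotic sequences each hold a CHR element and at least 2 CCAAT boxes, and Ccnf has 2 of each. Of the S-phase sequences, Mcm3 has 3 CCAAT boxes and an E2F site just after its start, Mcm2 has 1 CCAAT box and 1 CHR element, and Rrm2 has 1 CCAAT box alone. Over the 28 genes, a CHR element lay in the promoter of 13 of 16 mitotic genes (81.2%) and 3 of 12 S-phase genes (25%), against 21.7% of 27025 genes. An E2F site lay in 6 of 12 S-phase genes (50%) and 1 of 16 mitotic genes, Cdk1, against 2.6% of all genes. CCAAT boxes were found in 8 of 12 and 13 of 16, against 41.1%. The CHR element and the CCAAT box came together in 13 mitotic and 2 S-phase genes, against 8.61% of all genes. Matches may share bases, as in Mcm6, where 2 E2F words overlap. A match is a string of letters and not a measured binding site, and nothing follows about a factor where these letters are absent.

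Further genes of DNA replication, from a list of 52 of which 50 were measured, had more members below 0 than above. From E13.5 to E17.5, 7 of 50 fell and none rose in 129, where 4% of all genes were called lower, and 10 fell and none rose in M19, where 5.26% were. The medians were -0.24 and -0.25, and 45 and 38 of the 50 were below 0. Orc3, of the origin recognition complex, changed by -0.77 in 129 and -0.70 in M19. Wdhd1, which ties the helicase to polymerase alpha, changed by -0.69 and -0.72, Rpa3, of the single-strand binding protein, by -0.71 and -0.60, and Gins1, of the active helicase, by -0.59 and -0.53. Pole, the catalytic subunit of polymerase epsilon, went another way. It rose in the first step by 0.46 ± 0.12 in 129 (limma adjusted p 0.048) and 0.52 ± 0.12 in M19 (0.025), and fell in the second by -0.62 ± 0.12 in 129 (0.024).

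Further genes of mitosis were listed too, and 51 of 52 were measured. Over the span 7 of the 51 were called lower and 1 higher in 129, and 9 lower and 1 higher in M19. All genes gave 4% lower and 6.9% higher in 129, and 5.26% and 10.2% in M19. The medians of the 51 were -0.20 and -0.21. Espl1, which encodes separase, the protease that cuts cohesin, changed by -1.07 ± 0.13 in 129 and -0.78 ± 0.13 in M19. In each strain this was more than any of the 33 genes by its brightest probe set. Ttk, the checkpoint kinase MPS1, changed by -0.88 and -0.80, Cenph, of the inner kinetochore, by -0.67 and -0.84, and Cdca5, which encodes sororin, by -0.70 and -0.51. Cdc25b, a phosphatase that activates Cdk1, was the gene that rose, by 0.63 and 0.83. In the second step 9 of the 51 fell in M19 and 2 in 129, where 1.79% and 1.24% of all genes were called lower. Cenpe, a kinetochore motor, fell in both strains, by -0.63 in M19 and -0.58 in 129. Ndc80, a kinetochore gene, rose in the first step in M19 by 0.47 and fell in the second by -0.50, the course of Mad2l1.

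Of 14 inhibitors of the cell cycle and retinoblastoma family genes, 2 fell in both strains over the span, the kinase inhibitors Cdkn1a (-1.18 in 129, -0.92 in M19) and Cdkn1c (-1.06, -0.98). Cdkn1b, which encodes p27, rose by 0.88 and 0.70, and Cdkn2a by 0.74 and 1.30. Cdkn2c rose by 0.72 in M19. Of the 14 genes, 2 were thus called higher and 2 lower in 129, and 3 and 2 in M19. All genes gave 6.9% higher and 4% lower in 129, and 10.2% and 5.26% in M19. So inhibitors were called in both directions, while the 33 genes were called over the span in 1 direction by their brightest probe sets. The other probe set of Prc1 was called higher in the averaged span.

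Between the strains none of the 33 genes was called at E13.5, E15.5 or E17.5, nor averaged over the stages, by limma at an adjusted p under 0.05. The shares of all genes called were 0.033%, 0.682%, 0.0934% and 0.462% in these 4 comparisons. At an unadjusted p under 0.05 the counts were 0, 2, 0 and 0 of 33, where 2.54%, 7.61%, 1.5% and 4.67% of all genes passed, and no processing alternative gave a call. Median differences, M19 minus 129, were -0.01 at E13.5, 0.05 at E15.5 and 0.03 at E17.5. The 95% interval lay within 0.5 on either side of 0 for 30, 26 and 32 of the 33 genes at the 3 stages and for all 33 in the average over stages, where the widest bounds were -0.45 and 0.44.

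The genes furthest from 0 were at E15.5. Ect2 was 0.57 ± 0.19 higher in M19 (11.31 and 11.05 against 10.41 and 10.82; unadjusted p 0.0112, limma adjusted p 0.407), and Bub1 0.45 ± 0.15 higher (11.62 and 11.42 against 10.89 and 11.25; 0.0118 and 0.413). The arrays of the strains did not overlap for either gene, as held for 18.1% of all genes in that direction at that stage. Tyms was lower in M19 by -0.42 (7.86 and 7.77 against 8.51 and 7.96) and not called. Epidermis and muscle markers moved with this comparison, as 8 of 10 epidermis and 7 of 10 skeletal muscle markers were called lower in M19 at E15.5, with medians of -2.65 and -1.26, and so were 2 of 8 cartilage markers. Their part in the values of Ect2, Bub1 and Tyms was not tested. At E13.5 the extremes were Tyms at -0.28 and Cdc6, a helicase loader, at 0.18. At E17.5 they were Ccnb2 at -0.12 and Mcm7 at 0.22.

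**Figure D4:**
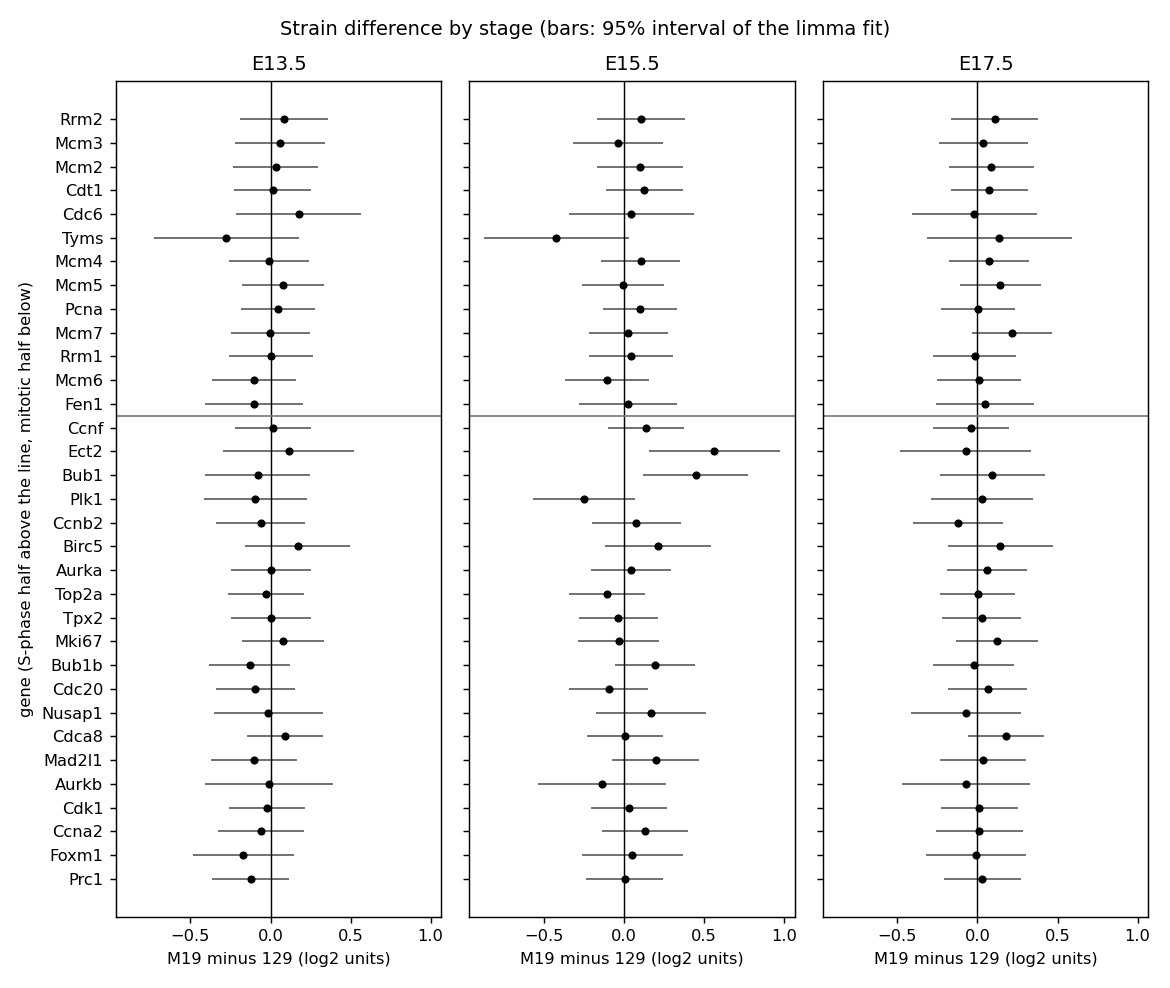
The log2 difference M19 minus 129 of each gene is drawn at the 3 stages, with bars for the 95% interval. No gene is called at any stage, and Ect2 and Bub1 at E15.5 are the 2 with an unadjusted p under 0.05.

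The change with stage was compared between the strains as an interaction, M19 minus 129, and none of the 33 genes was called in the first step, the second or the span, where 0.192%, 0.17% and 0.0165% of all genes were. Counts at an unadjusted p under 0.05 were 1 (Bub1, first step), 1 (Ect2, second step, -0.64 ± 0.26) and 0, where 3.67%, 4.13% and 2.03% of all genes passed. The intervals are wide, within 0.5 on either side of 0 for 19, 14 and 21 genes. So genes called in 1 strain and not in the other, such as Plk1, Ccnb2, Mad2l1 and Cdca8, were not shown to differ between strains.

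Fen1 is the 1 gene of the 33 on chromosome 19 (chr19:10199132-10204393, GRCm38.p6), which M19 carries from MOLF. Its signal was 11.75 and 11.35 in 129 against 11.49 and 11.41 in M19 at E13.5, 11.36 and 11.49 against 11.45 and 11.45 at E15.5, and 11.48 and 11.32 against 11.42 and 11.47 at E17.5. The strains overlapped at all 3 stages, and the averaged difference was -0.01. Array probes were designed on another strain's sequence, and whether MOLF bases alter binding to these probes was not tested.

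Some genes are measured less surely than the rest. Tyms was the dimmest, at 7.98 on average, and its replicates spread the most at E15.5 in 129 (8.51 and 7.96, SD 0.39). A further probe set maps to Tyms and its pseudogene Tyms-ps and was left out, and signal of both copies cannot be told apart. Aurkb, the kinase of the chromosomal passenger complex, was 9.62 and 10.11 on the 2 arrays of 129 at E15.5 and had no called difference. Nusap1, a spindle microtubule protein, was lowest at E15.5 in 129 (10.43 and 10.78) and showed no call in any comparison. Bub1b, the checkpoint partner of Bub1, and Cdc20, the activator of chromosome separation, went down over the averaged span by -0.23 and -0.21 without passing the test (limma adjusted p 0.062 and 0.0856).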

How the data were processed

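Signals of 12 Affymetrix mouse arrays were used as deposited: 1 log2 value for each of 45101 probe sets and array, made by the authors. Summary method, background correction, normalization and log base are not given in the sources used here; log2 is taken from their range. The authors carried a subset of probe sets forward by a rule not given here, whereas all 45037 that are not controls were tested here. Arrays have no read depth, and their number limits precision. The platform annotation gave 18193 genes, each represented by its brightest single-gene probe set.

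Group means were fitted to all 12 arrays with limma 3.58.1 (lmFit, eBayes; R 4.3.3; 6 residual and 4.82 prior degrees of freedom), two-sided, with Benjamini-Hochberg adjustment over 45037 probe sets and calls under 0.05. Python 3.11.15, pandas 2.3.3 and matplotlib 3.10.9 served for tables and plots. Data were simulated for the 129 span with changes in 200 of 45037 probe sets. The test found 2.99%, 62.7% and 95.5% of changes of 0.5, 1 and 2 log2 units. In the real 129 span 3721 probe sets were called, so the Benjamini-Hochberg cut-off was stricter in the simulation. The shares found there are thus not those for the data, but a small fall can go uncalled. Replicate numbers did not pair the arrays in a uniform way: deviations correlated from -0.37 to 0.54 over 15 group pairs, above 0.1 in 6 and below -0.1 in 7. The numbering within a group may be arbitrary, so this check cannot tell whether arrays of different groups shared an effect.

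Full statistics are given for called genes, in each comparison and group of genes with over 6 calls for the 3 largest and 2 smallest, and for the extremes where none was called; of other lists up to 4 called genes per direction are named. Members, lists and tests were chosen with earlier results of these data known. Alternatives were quantile normalization, median centring, a filter on dim probe sets, other probe set choices, an intensity trend with robust prior, a replicate block, the compared arrays alone, and leaving out arrays.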

Additional observations from a re-analysis of the deposited data

How the results depend on the processing

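No value changed sign under any alternative among the called genes, and the counts of genes called between strains and in the interactions were 0 in every setting run. Counts between stages moved more. For E13.5 to E15.5 in 129, the 1 call became 2 with quantile normalization, 0 with median centring, 2 with the mean of all probe sets, 3 with an intensity trend and robust prior, 0 with a replicate block and 0 in the fit on the compared arrays alone. In M19, the 1 call became 3, 3, 2 and 3 with quantile normalization, the mean of all probe sets, the trend and the compared arrays alone, and 2 with the next brightest probe set. For E15.5 to E17.5 in 129, the 1 call became 3 with quantile normalization, 2 with median centring, 2 with the filter on dim probe sets, 2 with the mean of all probe sets, 3 with the trend and 0 with the compared arrays alone. In M19, the 2 calls became 0 with the next brightest probe set. Here and in the other comparisons, that setting covers only the 24 genes with more than 1 probe set. Mad2l1, 1 of these 2 calls, has a single probe set and could not be called there. The same holds for Pcna, Ccnb2, Plk1 and Ect2. Counts in that setting are thus not directly comparable with the counts over all genes. For the span, the 4 calls in 129 became 8, 7, 7, 11 and 0 with quantile normalization, the filter, the mean, the trend and the compared arrays alone. The 4 in M19 became 7, 10, 7, 10, 7, 7 and 7 with quantile normalization, median centring, the filter, the mean, the trend, the compared arrays alone and the next brightest probe set. With the mean of all probe sets, 1 of those 10 was called higher, Prc1. Averaged over the strains, the 7 calls of the first step became 13 with quantile normalization, 11 with the trend, 4 with the compared arrays alone and 3 with the next brightest probe set. Leaving out 1 array at a time gave 0 to 0 and 0 to 1 calls in the first step (129, then M19), 0 to 1 and 0 to 2 in the second, 2 to 4 and 1 to 6 over the span, and 1 to 8, 3 to 5 and 7 to 17 in the averaged contrasts. Span counts fell to 2 without either 129 E17.5 array, and in M19 to 2, 1 and 2 without M19 E13.5 replicate 1, M19 E13.5 replicate 2 and M19 E17.5 replicate 1. The replicate block changed the count of the averaged span from 17 to 16. The cause of these moves was not tested.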
